A study of Mus musculus with 4 samples.

Results

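A set of 10 genes whose RNA was lower in both Nup358 knockout libraries was followed across the progenitor types of the mouse bone marrow. They were Greb1, Tmem215, Tctex1d1, Gria3, Gda, Izumo4, Cox6b2, Pcp4l1, Rasa4 and B3gnt8, 10 of the 27998 genes in the count matrices, and all 10 passed the filter on low counts that left 13779 genes. The genes were selected on their level over all LSK cells, which was lower in both knockout libraries than in both controls, so the size of that fall is given as a description and without a test. What follows asks which progenitor types carried each gene and whether the fall was still there within a type.

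Single-cell RNA was counted from 4 libraries of Lin-Sca1+cKit+ (LSK) cells, the sorted bone marrow fraction that holds hematopoietic stem cells and multipotent progenitors. Each library pooled 3 bone marrows of mice aged 9 to 12 weeks. The 2 control libraries, labelled wild-type, came in the study from Nup358 fl/fl mice, and the 2 knockout libraries from Nup358 fl/fl CreERT2 mice, in which a tamoxifen-regulated Cre is expressed from the R26 locus and exon 2 of Nup358 is removed in all tissues. Both genotypes carry the floxed alleles and were given tamoxifen in the study's design, on 3 consecutive days. The controls carry no Cre, so effects of Cre with tamoxifen cannot be told apart from loss of Nup358, and the loss is not limited to blood cells.

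Nup358 (gene symbol Ranbp2) is a large protein of the cytoplasmic filaments of the nuclear pore, where it takes part in transport and SUMOylation. LSK cells are not uniform: stem cells, lymphoid-primed cells and cells already primed for neutrophils, megakaryocytes or red cells are mixed in the sort, so that the level of a gene over all LSK cells depends both on how much RNA each type holds and on how many cells of each type there are. The 10 genes belong to unrelated families, and most are known from other tissues: Gria3 from neurons, Izumo4 and Cox6b2 from the testis, Pcp4l1 from the nervous system and Greb1 from tissues that respond to estrogen.

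Levels are given as CPM, the unique molecular identifiers (UMIs) of a gene per 1000000 UMIs of the library or class. Ranbp2 itself was at 127, 101, 124 and 126 CPM in control 1, control 2, knockout 1 and knockout 2. The libraries read 3′ transcript ends, away from exon 2, so this value does not check the genotype. Of 25242 barcodes, 10936 (43.3%) had a barcode sequence that held at least 3 times more UMIs in another library, which was 14.8% of the barcodes in control 1, 81.8% in control 2, 65.3% in knockout 1 and 18.8% in knockout 2. They held 6.45% of all UMIs and were left out of the values here, which rest on 14041 cells with 18846887 to 59033602 UMIs per library. The median UMIs per cell were 6251 in control 1, 13175.5 in control 2, 17707 in knockout 1 and 14398.5 in knockout 2. Kit was at 73.3 to 103 and Ly6a at 133 to 317 CPM in the 4 libraries. The summed level of 12 neutrophil markers was 10231 and 6402 CPM in the controls and 1762 and 1106 in the knockouts, and that of 7 immediate early genes was 2971 and 3220 against 1108 and 1265. Their part in the falls of the 10 genes over all LSK cells was not tested beyond the split by cell type below.

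The genes lie apart from each other, on 8 chromosomes (GRCm38). Greb1 is at chr12:16670615-16800886 on the minus strand, Tmem215 at chr4:40472180-40477168 and Tctex1d1 at chr4:102978606-103005594 on the plus strand. Gria3 is at chrX:41400854-41678601 (plus), Gda at chr19:21391307-21473445 (minus) and Izumo4 at chr10:80702184-80705373 (plus). Cox6b2 is at chr7:4751792-4753094 (minus), Pcp4l1 at chr1:171173262-171196268 (minus), Rasa4 at chr5:136083916-136111860 (plus) and B3gnt8 at chr7:25626654-25635100 (plus). B3gnt8 overlaps Bckdha, a gene for a subunit of the branched-chain keto acid dehydrogenase, on the other strand.

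RefSeq promoter windows (GRCm38.p6) were at hand for 8 of the 10 genes, as 10 windows of the 250 bases before a start. The 2 genes whose windows held both of the common promoter motifs outside any annotated part of the gene were Cox6b2, at chr7:4753095-4753344 on the minus strand, and Rasa4, at chr5:136083666-136083915 on the plus strand. They are shown because these 2 genes fell by similar amounts but had their highest control level in different cell types. Capitals mark CCAAT and GGGCGG, read on either strand.
Cox6b2: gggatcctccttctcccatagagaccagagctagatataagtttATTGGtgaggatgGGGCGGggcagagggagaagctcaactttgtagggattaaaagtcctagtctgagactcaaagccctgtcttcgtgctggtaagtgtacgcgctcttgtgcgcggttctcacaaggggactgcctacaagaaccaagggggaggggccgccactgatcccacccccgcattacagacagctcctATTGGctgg
Rasa4: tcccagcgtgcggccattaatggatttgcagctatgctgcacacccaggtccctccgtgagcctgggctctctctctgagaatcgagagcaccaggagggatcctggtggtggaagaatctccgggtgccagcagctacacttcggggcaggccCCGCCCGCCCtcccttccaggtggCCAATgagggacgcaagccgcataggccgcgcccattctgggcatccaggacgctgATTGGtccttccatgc
CCAAT was in 5 of the 10 windows, from 5 of the 8 genes, and in 33.8% of 32851 promoter windows of the same length. GGGCGG was in 4 of the 10 windows, from 4 of the 8 genes, and in 32.7% of all windows. The window of Greb1 with CCAAT and the window of Gda lie inside the annotated genes. The C/EBP motif TTGCNNAA was found only in the window of Gda, and in 9.56% of all windows. The other motifs were searched on both strands and not found in these windows. They were AGATAAG for the factors of red cells and megakaryocytes, CCGGAAGT for ETS factors, TTTGGCGC for E2F factors and TGACGTCA for factors that respond to cyclic AMP. They also included the E-box CACGTG, the site TGTGGTT of RUNX factors and the palindromic estrogen response element. The share of all windows with these motifs ran from 0.0639% to 6.02%.

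Over all LSK cells, Greb1, a cofactor of the estrogen receptor, was at 19.2 and 27.1 CPM in the 2 controls and at 3.85 and 3.40 in the 2 knockouts, 6.40-fold lower by the means. Tmem215, a transmembrane protein, was at 11.98 and 13.7 against 2.08 and 2.25, 5.95-fold lower. Gria3, a subunit of AMPA glutamate receptors, was at 63.0 and 54.3 against 13.04 and 9.36, 5.24-fold lower. These were the larger falls among genes with many UMIs, and in each the controls were spread over less than the gap to the knockouts. Gda, the enzyme that deaminates guanine to xanthine, was at 19.1 and 20.8 against 5.25 and 4.59, 4.05-fold lower. Izumo4, a relative of the sperm protein Izumo1, was at 11.2 and 13.2 against 3.18 and 3.34, 3.74-fold lower. B3gnt8, which extends poly-N-acetyllactosamine chains on N-glycans, was at 27.4 and 21.2 against 6.84 and 8.38, 3.20-fold lower.

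The falls of the remaining well-counted genes were smaller, and their knockout replicates lay close together. Pcp4l1, a small protein with a calmodulin-binding motif, was at 60.7 and 70.1 CPM in controls and 24.99 and 23.9 in knockouts, 2.67-fold lower. Rasa4, a calcium-regulated GTPase-activating protein for Ras, was at 42.3 and 38.3 against 15.1 and 15.1, 2.66-fold lower. Cox6b2, the testis form of a cytochrome c oxidase subunit, was at 73.2 and 79.1 against 34.3 and 34.4, 2.22-fold lower. Tctex1d1, a protein with a dynein light chain domain, stood apart: it gave 202 and 56 UMIs in the controls and 2 and 1 in the knockouts, a ratio of 95.6 with a 95% counting interval of 32.4 to 467.

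In all 10 genes both knockout libraries lay below both control libraries, which is how the genes were picked. Over all genes tested, 27.4% had both knockouts below both controls, and 2.07% were called lower by edgeR's quasi-likelihood test. With all deposited barcodes the 10 genes again did not overlap between genotypes. The contrast is the same one, so nothing is read from this. Tctex1d1 then had 7 and 8 knockout UMIs, at 0.195 and 0.146 CPM, against 3.35 and 2.56 CPM in the controls.

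**Figure D1:**
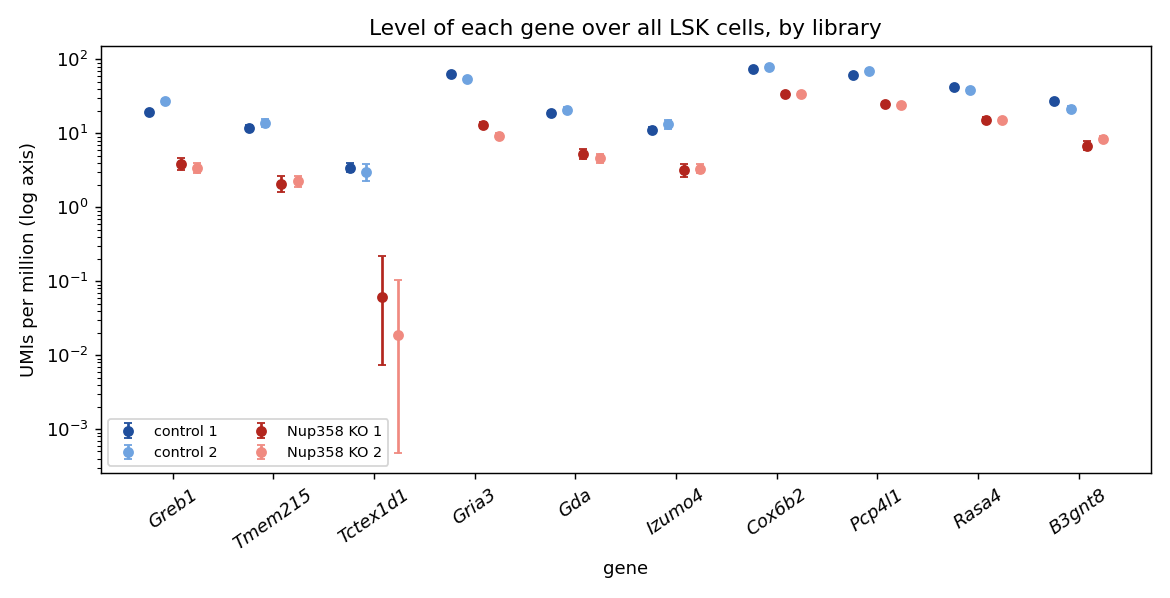
Level of each of the 10 genes over all LSK cells, in CPM on a log axis, for the 2 control and 2 Nup358 knockout libraries; bars are 95% Poisson intervals, which cover counting error only. In each gene both knockout points lie below both control points, and Tctex1d1 rests on 2 and 1 UMIs in the knockouts.

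Cells were grouped without the 10 genes and named from marker lists. The classes that held at least 20 cells in every library were 6: stem-like, lymphoid-primed-like, neutrophil-like, megakaryocyte-like and erythroid-like cells, and a class of 6 clusters that took no name. The neutrophil-like class had 1628 and 167 cells in the controls and 46 and 54 in the knockouts, and held 34.9% and 26.3% of control UMIs against 4.27% and 2.09% of knockout UMIs. The unnamed class held 34.9% and 32.6% against 55.3% and 53.6%. The neutrophil-like shares depended on the clustering. At a finer resolution they were 38.6% and 32.7% in controls against 11.6% and 8.82% in knockouts. Without centring of libraries they were 52.3% and 33.6% against 4.76% and 1.17%. When cells were thinned before clustering they overlapped, at 59.6% and 52.5% against 54.6% and 54.7%. Within the stem-like class, a cluster led by Tcf15 held most knockout cells (187 and 467, with 161 and 31 in controls) and one led by Ltb most control cells (1265 and 251, with 97 and 187 in knockouts), so stem-like values compare partly different clusters. The same holds in the unnamed class, where a cluster led by Ccl3 held 922 and 148 control against 62 and 153 knockout cells, and one led by Gm8251 held 133 and 45 against 267 and 425. In the lymphoid-primed-like class, the cluster led by Wfdc17 held 878 of 1101 and 174 of 206 control cells but 50 of 103 and 138 of 242 knockout cells. Depth differed between these clusters too. The median UMIs per cell were 13795 in the Tcf15 and 3620 in the Ltb cluster. They were 11742 in the Gm8251 and 5343 in the Ccl3 cluster, and 5508 in the Wfdc17 cluster against 10730 in the other lymphoid-primed-like one. Values of these 3 classes carry these limits wherever they are given.

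**Figure D2:**
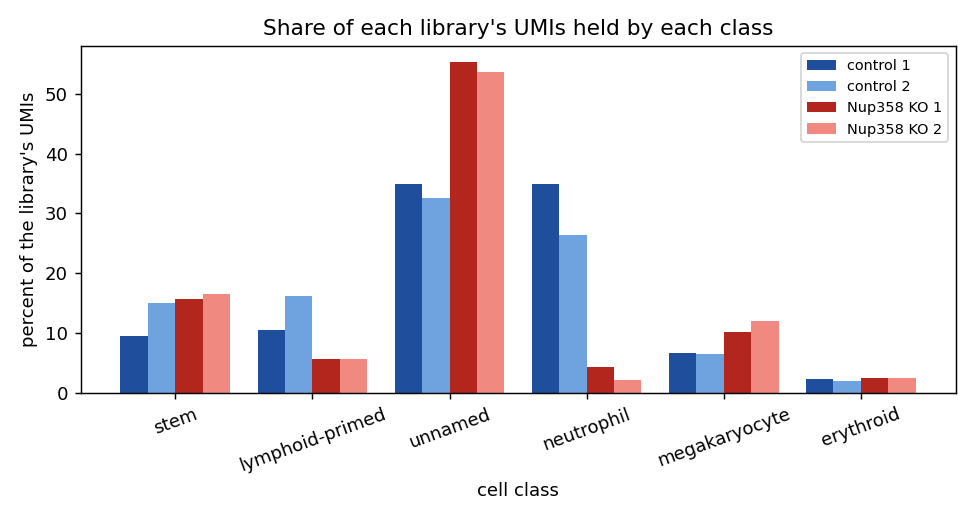
Percent of each library's UMIs held by each of the 6 classes, by library. In this clustering the neutrophil class held 34.9% and 26.3% in controls and 4.27% and 2.09% in knockouts, and the unnamed class held over 50% of knockout UMIs (55.3% and 53.6%).

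By their levels in the controls, the genes fell into different carriers. Tctex1d1, Gda, Gria3 and B3gnt8 were highest in neutrophil-like cells, Greb1, Pcp4l1 and Izumo4 in stem-like cells, Tmem215 in the unnamed class, Rasa4 in lymphoid-primed-like cells and Cox6b2 in erythroid-like cells. Several of these orders were close. For Greb1 the stem-like level (38.8 and 34.97 CPM) overlapped the unnamed level (28.3 and 41.1), for Pcp4l1 the stem-like level (106 and 96.1) overlapped the lymphoid-primed-like level (83.0 and 102), for Izumo4 the stem-like level (17.5 and 19.8) overlapped the megakaryocyte-like level (16.1 and 20.6), and for Tmem215 the unnamed level (16.3 and 19.2) overlapped the stem-like level (15.2 and 16.95).

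Tctex1d1 was nearly limited to 1 class, with 244 of its 258 control UMIs (94.6%) in neutrophil-like cells. Its level there was 9.12 and 11.3 CPM in the controls. The 100 knockout cells of that class held 0 Tctex1d1 UMIs among 2522260, which by counting error alone allows a level of up to 1.19 CPM over the group. The pooled control level of 9.54 CPM was 8.02-fold above that limit. This value leaves out the spread between libraries. The 3 knockout UMIs lay in the unnamed class. In each of the other 5 classes the controls held between 0 and 5 UMIs, too few to show a fall.

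Gda had 78.8% of its control UMIs in neutrophil-like cells. Its fall was smaller within the classes of this clustering than over all cells, but not evenly so within the neutrophil-like class. In neutrophil-like cells it was at 44.8 and 55.0 CPM in the controls and at 17.2 and 42.7 in the knockouts. Its megakaryocyte-like levels overlapped, at 11.7 and 16.5 against 12.1 and 8.63. In stem-like cells Gda was at 9.67 and 17.3 against 7.80 and 5.87, and in lymphoid-primed-like cells, with 4 control and 10 knockout UMIs, the knockouts were higher. The neutrophil-like class was itself uneven. In the cluster led by S100a8, Gda was at 152 CPM in 77 control cells and 425 in 15 knockout cells. In the cluster led by Ly6c2 it was at 44.1 in 1579 control cells and 12.2 in 75 knockout cells. These cluster values pool the libraries of a genotype. The S100a8 cluster held 45 of the 72 knockout Gda UMIs of the class and 175 of its 1196 control ones. Neutrophil-like Gda values thus compare a different mix of clusters.

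Gria3 and B3gnt8 were highest in neutrophil-like cells but were spread over others too. Gria3 was at 94.8 and 103 CPM in control neutrophil-like cells and at 32.2 and 25.8 in knockout ones. It was lower in the knockouts in lymphoid-primed-like cells (49.8 and 43.8 against 11.9 and 7.90), stem-like cells (41.7 and 29.3 against 10.5 and 5.87) and the unnamed class (54.1 and 45.2 against 14.3 and 11.6). In megakaryocyte-like cells the gap was narrower, 9.95 and 9.89 against 6.65 and 5.85. B3gnt8 was at 35.8 and 30.2 against 10.7 and 11.6 in neutrophil-like cells, and both knockouts lay below both controls in all 6 classes.

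Both of these genes were also found in cells that were mostly in the knockout libraries. Gria3 was at 71.0 and 52.0 CPM in the plasmacytoid dendritic-like cells of the knockouts (15 and 19 UMIs in 35 and 67 cells), above its knockout level in each of the 6 classes. B3gnt8 was at 21.2 and 44.8 in knockout B-like cells (9 and 98 UMIs in 94 and 283 cells), and B-like cells gave 15.9% of its knockout UMIs. Mature B cells carry lineage markers and lack Kit, so the Lin and cKit gates of the sort would remove them. The B-like cluster led by Cd79a had 0 Kit UMIs and held 16 of these B3gnt8 UMIs, and the one led by Igll1, a gene of B cell precursors, had 56 Kit UMIs and held 91. The controls had 4 and 0 plasmacytoid dendritic-like and 6 and 3 B-like cells, too few for a comparison.

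Greb1, Pcp4l1, Izumo4 and Tmem215 were lower in the knockouts across the stem-like, lymphoid-primed-like and unnamed cells that held most of their UMIs. Greb1 was at 38.8 and 34.97 CPM in control stem-like cells and 5.85 and 4.17 in knockout ones, and at 28.3 and 41.1 against 3.81 and 3.81 in the unnamed class. Pcp4l1 was at 106 and 96.1 against 35.1 and 38.3 in stem-like cells and at 83.0 and 102 against 30.9 and 22.4 in lymphoid-primed-like cells. Izumo4 was at 17.5 and 19.8 against 3.51 and 3.61 in stem-like cells and at 16.1 and 20.6 against 3.63 and 4.31 in megakaryocyte-like cells. Tmem215 was at 16.3 and 19.2 against 2.05 and 2.84 in the unnamed class and, with 9 knockout UMIs, at 10.3 and 12.5 against 5.003 and 1.78 in neutrophil-like cells. Greb1 overlapped between genotypes in 1 class, erythroid-like cells, where it had 13 and 0 UMIs in the controls and 1 and 0 in the knockouts.

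Rasa4 was at 60.1 and 70.3 CPM in control lymphoid-primed-like cells and at 27.1 and 30.6 in knockout ones. In neutrophil-like cells it was at 46.6 and 35.3 against 20.0 and 13.4, and in the unnamed class at 42.2 and 39.5 against 16.7 and 16.4. Megakaryocyte-like cells were the exception, with 12.5 and 0.825 against 4.83 and 4.78, the second control resting on 1 UMI.

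Cox6b2 was the only one of the 10 with its highest level in erythroid-like cells, at 277 and 160 CPM in the controls and 27.1 and 39.1 in the knockouts, 6.60-fold lower by the means. In the other 5 classes it was 1.84-fold to 2.50-fold lower, for example 74.5 and 74.2 against 34.5 and 33.4 in stem-like cells. In the knockouts the levels in those 5 classes ran from 27.6 to 40.8, close to the erythroid-like levels. The erythroid-like class was small, with 141 and 22 control and 30 and 55 knockout cells.

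Counted by class, both knockouts lay below both controls for 10 of the 10 genes in neutrophil-like cells, 9 in stem-like cells, 9 in the unnamed class, 8 in lymphoid-primed-like cells, 7 in megakaryocyte-like cells and 7 in erythroid-like cells. Among all genes tested in the same classes this held for 17.4%, 33.4%, 31.6%, 20.2%, 25.8% and 16.5%, and since the contrast is the one that picked the genes, nothing is read from the difference. The median knockout level, over the genes with a control level above 0, was 35.1% of the control level in neutrophil-like, 29.7% in stem-like, 32.4% in unnamed, 26.7% in lymphoid-primed-like, 46.5% in megakaryocyte-like and 20.5% in erythroid-like cells. In erythroid-like cells only Cox6b2 and Pcp4l1 passed the filter on low counts that the share of all genes rests on. The median there is the value of Rasa4, with 13 control and 3 knockout UMIs.

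**Figure D3:**
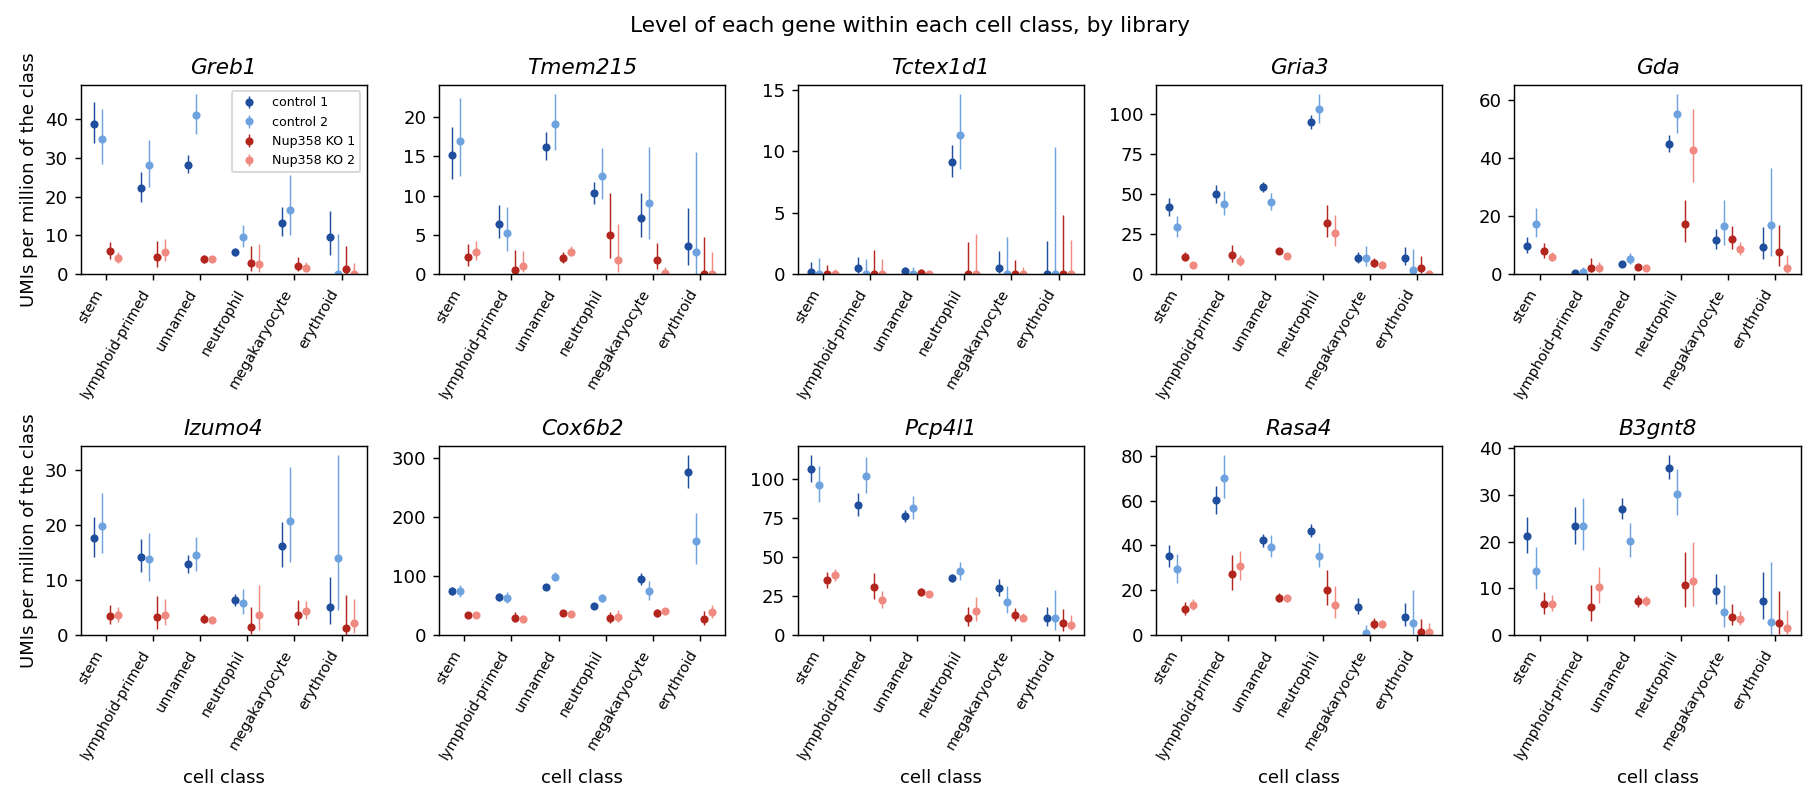
Level of each gene within each of the 6 classes, in CPM of the class on a linear axis from 0, by library; bars are 95% Poisson intervals for counting error only. Tctex1d1 is seen in control neutrophil cells (9.12 and 11.3), Cox6b2 stands out in control erythroid cells (277 and 160), and the Gda points of knockout neutrophil cells are far apart (17.2 and 42.7).

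To separate levels within classes from class shares, the level in each class was weighted by the mean control share of UMIs over the 6 classes. At these fixed shares Greb1 was 6.48-fold lower in the knockouts (6.21-fold when the same classes were simply summed), Tmem215 5.49-fold (6.01), Izumo4 4.12-fold (3.94), Pcp4l1 2.95-fold (2.56), B3gnt8 2.97-fold (3.60), Rasa4 2.41-fold (2.72) and Cox6b2 2.30-fold (2.15). These 7 folds moved by less than that of Gria3, which went from 5.16-fold to 3.65-fold lower. Gda went from 4.03-fold to 1.66-fold lower, with fixed-share levels of 17.4 and 22.5 CPM in the controls and 8.44 and 15.6 in the knockouts. On the log2 scale 36.3% of the Gda fall and 78.9% of the Gria3 fall was left. The Gda value carries the uneven neutrophil-like class given above, where 45 of 72 knockout UMIs came from 15 cells of the S100a8 cluster. It is thus not a measure of class shares alone. The value for Gda depended on the clustering: its log2 difference was -0.73 here, -1.52 at a finer resolution, -1.94 when cells were thinned before clustering and 0.13 when libraries were not centred before clustering. With thinning the neutrophil-like shares of UMIs overlapped between genotypes (59.6% and 52.5% in controls against 54.6% and 54.7% in knockouts). No fixed-share fold is given for Tctex1d1, which had 3 knockout UMIs.

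**Figure D4:**
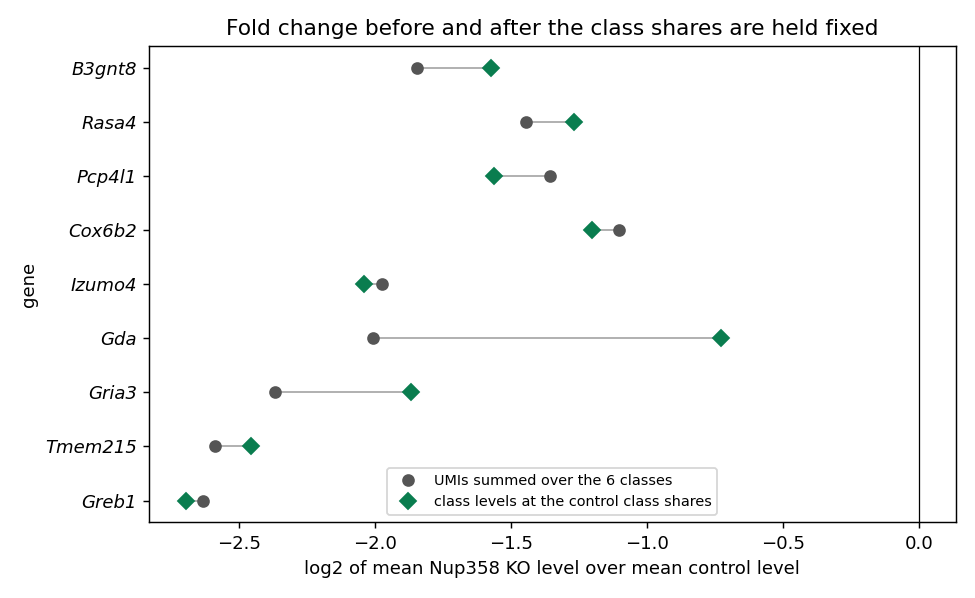
Log2 of the mean knockout level over the mean control level for 9 genes, with UMIs summed over the 6 classes (circles) and with class levels weighted by the control class shares (diamonds). The diamond of Gda lies at -0.73 and its circle at -2.01, the widest gap of the 9.

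Whether the difference between genotypes itself differed between the 6 classes is a separate measure from the one that picked the genes, and was tested for all genes at once with edgeR's quasi-likelihood test. Of 11672 genes, 21.2% were called, so that a call in 2 of the 10 genes is close to that share. Cox6b2 was called (adjusted p = 0.000318), with a log2 difference between genotypes that was changed by a further -1.62 in erythroid-like cells than in the unnamed class. Gria3 was called at an adjusted p of 0.0369, but was no longer called in 6 of 9 other settings, where its adjusted p reached 0.72. The remaining 8 genes had adjusted p from 0.159 for Gda to 0.916 for Izumo4, which does not show that their falls were equal between classes. In simulated data this test made more false calls than its nominal 5%, which bears most on the call of Gria3.

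Across the 13 sums of a class in a control library with at least 20 cells, the genes most like each member were found by Pearson's r of log2 levels among 9592 genes; the points share libraries and depth. Tctex1d1 was most like Clec5a (r = 0.97), Ero1l and Wfdc21, a granule-stage gene. B3gnt8 was most like another of the 10 genes, Gria3 (r = 0.97), followed by Pycard and Ifngr2, and Gria3 was most like Nuak2 (0.98), Fndc3b and Ms4a6c. Pcp4l1 was most like Man1a (0.98), Gpr171 and Cd27, Greb1 most like Bbx (0.97), Tcf7l2 and Cd96, and Izumo4 most like Fam65b (0.98), Sgce and Tmem98. Rasa4 was most like Dirc2 (0.96), Ccl9 and Cd53, Cox6b2 most like Usp46 (0.94), Fam132a and Ugcg, Tmem215 most like Clec4e (0.91), Manba and Jmjd8, and Gda most like Tfpi (0.87), Dstn and Sec24d. Among the 10 genes the likeness ranged widely, from 0.97 for Gria3 with B3gnt8 to -0.71 for Gria3 with Cox6b2.

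The relatives of the 10 genes mostly did not pass the test. Of 98 genes in 9 lists of relatives, 74 were tested over all LSK cells with edgeR, and 2 were called higher and 1 lower (4.05%), beside 3.44% of all genes in either direction. The median log2 difference over the 74 was 0.01, beside -0.01 over all genes. No other dynein light chain or motor gene of the Tctex list (13 tested), purine gene (16 tested) or Ras GTPase-activating gene (9 tested) was called. The median log2 difference of the Tctex list was -0.14. Its Dynlt and Tctex1d genes all had negative differences, and its Dynll, Dynlrb and Dync genes mostly had positive ones.

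Of the glycosyltransferases beside B3gnt8 (12 tested), B4galt6, a lactosylceramide synthase, fell: it was at 19.8 and 17.2 scaled CPM in the controls and 6.30 and 5.87 in the knockouts (log2 difference -1.61 ± 0.17 (SE), adjusted p = 0.0079). Within classes its gap was widest in neutrophil-like cells, at 35.9 and 32.0 CPM against 5.72 and 3.56. The share of UMIs of that class was also far lower in the knockouts in this clustering. It was narrower in stem-like cells (20.9 and 15.2 against 8.97 and 12.2), lymphoid-primed-like cells (11.8 and 13.1 against 5.41 and 5.59), megakaryocyte-like cells (6.38 and 6.60 against 3.93 and 2.93) and the unnamed class (9.61 and 10.2 against 6.19 and 5.58), and in erythroid-like cells it had at most 7 UMIs per library. B3gnt7 rose, from 2.80 and 2.58 to 5.49 and 5.68 (1.05 ± 0.21, adjusted p = 0.0473), a call that was lost in 4 of 11 other settings. Among 14 cytochrome c oxidase genes, Cox6a2, the muscle form of a subunit, rose from 2.19 and 4.22 to 9.60 and 8.64 (1.57 ± 0.31, adjusted p = 0.0473), a call lost without the cells with the top 5% of UMIs. Plasmacytoid dendritic-like cells, 35 and 67 in the knockouts and 4 and 0 in the controls, gave 50.8% of its knockout UMIs. Cox6a2 is itself one of the markers that named that class and was not left out of the clustering. Nothing is thus read from this share.

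In lists with no call, members with the largest differences are given. Esr1, an estrogen receptor, had a log2 difference of 0.32 ± 0.15 (SE) and Greb1l, the paralog of Greb1, 0.19 ± 0.53. Dynlt1b, which has near-identical copies that counting may split, had -1.54 ± 0.44. Grik5, the one other ionotropic glutamate receptor gene tested, had -0.07 ± 0.17, and Xdh, an enzyme of purine breakdown, -1.48 ± 0.52. Of 3 genes with few counts only the levels are given: Tctex1d4 was at 0.34 and 0.55 scaled CPM in the controls and 0.15 and 0.037 in the knockouts, Ampd1 at 0.12 and 0 against 0.51 and 0.44, and Izumo1r, the egg receptor of Izumo1, at 0.017 and 0 against 0.24 and 0.44. Calm3 had 0.30 ± 0.19, Rasal1 1.40 ± 0.37 and Rasa3 -0.33 ± 0.17.

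The genes next to the 10 on the chromosome were also mostly not called. Of 21 neighbouring or overlapping genes tested, 0 were called higher and 1 lower, and their median log2 difference was -0.12. The gene called was Upk3bl, 19590 bases before Rasa4 on the same strand, at 4.52 and 2.36 scaled CPM in the controls and 0.90 and 0.79 in the knockouts (log2 difference -2.07 ± 0.38 (SE), adjusted p = 0.0385). Polr2j, on the other side of Rasa4, had -0.12 ± 0.16. Bckdha, which overlaps B3gnt8 on the other strand, had -0.66 ± 0.15 (adjusted p = 0.0668), and how the counting used strand is not given in the sources used here. Mob3a and Ap3d1, which lie 207 and 1583 bases from Izumo4, had 0.02 ± 0.15 and 0.08 ± 0.23.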

How the data were processed

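RNA of sorted LSK cells was counted by the 3′ kit of 10x Genomics in 2 control and 2 Nup358 knockout libraries. The deposited values are raw UMI counts per gene and barcode, which the authors made with Cell Ranger (version 3.1 in the submitters' processing notes) on GRCm38, without normalization. The genes and gene lists were chosen with earlier results of these data known. A barcode was used if it had 200 or more genes and no more than 10% of its UMIs from mitochondria, and barcodes with at least 3 times more UMIs in another library were left out. Doublets and free RNA were not removed.

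Cells were clustered without the 10 genes with scanpy 1.11.5 (2000 variable genes, 20 components, 15 neighbours, Leiden resolution 1), after centring and scaling each library. A cluster was named when 3 or more markers of a list were raised and the list's mean log2 fold reached 1. The name was withheld when another list had more of its genes among the 10 leading genes of the cluster. It was also withheld from clusters with few UMIs per cell and no gene of the list among those 10. Of 3 clustering and naming versions run, this was the last, adopted after the cluster tables of the others had been seen. The first, without centring, is given as an alternative and changes some results.

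UMIs were summed per library, or per class and library for classes with at least 20 cells in each library, and tested with edgeR 4.0.16 (R 4.3.3) by its quasi-likelihood method with filterByExpr, TMM scaling and Benjamini-Hochberg adjustment at 0.05. The interaction test had the library as a block. Levels are CPM of the library or class, and values called scaled CPM use TMM. Each SE is the absolute log2 difference divided by the square root of the F statistic of the quasi-likelihood test. It is not a value estimated by the fit itself. The script was tested on simulated data drawn with gene-wise dispersions, where both tests made more false calls than their nominal level, the interaction test more so. With dispersions drawn from the trend instead, the false calls over all LSK cells were within the nominal level and those of the interaction test were still above it. Other options of the fit were tried on simulated data only and did not remove this, and the fit was kept as planned. DESeq2 1.42.0 was an alternative. The p-values over all LSK cells measure only the spread between 2 pools per genotype. Those of the interaction test measure the spread of class sums left after library and class are fitted, within the same 4 libraries. Intervals are exact 95% Poisson intervals for counting error only.

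Genes named are the 10, their neighbours and the 3 genes most like each, and in each list of relatives those past the threshold or, with none, the 2 largest differences, of which 1 is not reported here. Neighbours with no call and no overlap are named by position only for Rasa4 and Izumo4. No protein sequences were used here.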

Additional observations from a re-analysis of the deposited data

Results flagged for a closer look

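The difference between genotypes differed between the 6 classes for Cox6b2 (adjusted p = 0.0003183, edgeR's quasi-likelihood interaction test), with the wider gap in erythroid-like cells (277 and 160 CPM in controls, 27.1 and 39.1 in knockouts). Over 9 other settings its adjusted p ran from 2.46e-14 to 0.0461. The erythroid-like class held 22 cells in control 2 and 30 in knockout 1. The setting without centring had no such class.

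The same test gave an adjusted p of 0.03692 for Gria3, whose levels in megakaryocyte-like cells (9.95 and 9.89 against 6.65 and 5.85 CPM) were closer than in the other well-counted classes. Over 9 other settings its adjusted p ran from 0.000884 to 0.72, and it was past the threshold in 3 of them.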

How the results depend on the processing

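In all 10 genes both knockouts lay below both controls also with all deposited barcodes, with at least 500 genes per cell and without the cells with the top 5% of UMIs. These settings reuse the same libraries and contrast, and leaving out each library in turn could not undo this order. The order was the rule that picked the genes, so nothing is read from any of these settings. The fold of Tctex1d1 moved most, since it rests on few knockout UMIs. At fixed class shares 9 or 10 genes did not overlap in every setting. The share of all genes for which this held is not given here. The contrast is again the one that picked the genes, so nothing is read from this count. The log2 difference of Gda turned to 0.13 when libraries were not centred before clustering, which was the first clustering version run. Without 1 library the Gda difference ran from -1.24 to -0.35.

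Of the highest classes, 5 of 10 were kept without centring. That setting had no class named erythroid-like or lymphoid-primed-like, so Cox6b2 and Rasa4 could not keep theirs. There a cluster of 982 cells with 6 of 7 lymphoid-primed markers raised took no name under the naming rule. A cluster led by Car1, an erythroid marker, was named basophil or mast. The count of genes called over all LSK cells was 474, against 204 without the top 5% of UMIs, 1933 with no filter on low counts and 946 by DESeq2. It ran from 372 to 2890 without 1 library, with 2890 without control 1 and 1932 without control 2; the lone library left in a group was assumed to vary like the other group. With the replicate number as a block it was 1257. The labels give only a replicate number. The deviations of same-numbered libraries did not go together (r = -0.05 across genes), but 1 difference per genotype cannot decide whether such libraries were prepared together. Interaction calls were 2475, against 143 with all deposited barcodes and 198 without centring, and 932 to 2496 without 1 library (1173 without knockout 1 and 932 without knockout 2). Gda was called in the interaction test at resolution 1.5 (adjusted p = 0.000469), with thinning (2.31e-07) and with no filter (0.0322), Tmem215 at resolution 1.5 (0.00725), and Pcp4l1 without control 1 (0.0495). The log2 difference of Grik5 ran from -0.18 to 0.034 without 1 library, reversing without knockout 1. Upk3bl was not called with all deposited barcodes or without the top 5% of UMIs. The causes were not tested.

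With 2 libraries per genotype and 46 and 54 knockout neutrophil-like cells, levels under 1.19 CPM in knockout cells of that class were not detectable.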
